A study of Mus musculus with 3 samples.

Results

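Rbfox3, Elavl3, Elavl4, Map2, Tubb3, Stmn2, Nefl, Nefm and Gap43 are genes best known from neurons, and several are also known from endocrine cells. H3K27ac peaks were assigned to these 9 genes, of 21887 protein-coding genes, when they lay inside the gene or within 50 kb of it with no other protein-coding gene nearer. Touching or overlapping peaks of the 3 libraries were merged, and 96 of the 52938 merged regions fell to the 9 genes. The genes are a named set, chosen with earlier results of these data known.

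The series compares MIN6 cells, a mouse insulinoma line that serves as a model of the beta cell, labelled as Wildtype, as Heterozygous ARID1A KO or as Homozygous ARID1A KO. Arid1a encodes a subunit of SWI/SNF, a complex that moves nucleosomes. By the labels, cells with a stable Cas9 transgene under blasticidin selection received an Arid1a guide RNA by lentivirus under puromycin selection, and single clones were then sorted into the 3 genotypes by PCR and Western blotting. Each genotype had 1 library, and the labels do not say how many clones went into it, so a difference between libraries may be one between clones, no p-value can be given, and every count below has no replicate check.

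H3K27ac is an acetylation of histone H3 that marks active promoters and enhancers. Pancreatic endocrine cells and neurons share many genes, among them transcription factors such as Neurod1, Isl1 and Pax6, vesicle proteins and cytoskeletal proteins. In most other tissues many of these genes are held silent by the repressor REST, which is low in both neurons and beta cells.

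The lists held 41490 wild-type, 31365 heterozygous and 34298 homozygous peaks, of median width 509, 474 and 489 bp, in 39889, 29237 and 32635 merged regions. The sources used here give no read totals. A background of at least 2.17 reads per position was recovered for wild type and of 1.73 for each knockout, so that depth and genotype cannot be told apart in counts against wild type. Of 11 beta cell markers, 10 had a region in wild type, 10 in heterozygous cells and 11 in homozygous cells, and Ins1 and Ins2 had a peak at a gene end in each. Among 9 genes of neurons with no known role in islets, Camk2a had a peak at a gene end in wild type and no region in either knockout, and Neurod2, Neurod6, Tbr1, Slc17a6 and Emx1 had no region in any library. Of 5 glial markers Mbp alone had a peak at a gene end, in every library.

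RefSeq promoter sequences (GRCm38.p6, the assembly of mm10) were found for 5 of the 9 genes. Below are 4 of them, as the 250 bases before the annotated start, 5′ to 3′ on the strand of the gene. They show the start that had a peak in wild type alone (Rbfox3, an inner start, far from the upper end of the gene) beside 3 starts with a peak within 1 kb in every library. Capitals mark exact matches, on either strand, to TATAAA of the TATA box, CCAAT bound by NF-Y, GGGCGG bound by SP1, TGACGTCA bound by CREB, TGACTCA bound by AP-1, the E-boxes CAGATG and CAGCTG, and TCAGCACC and GGACAGC, which are parts of the element bound by REST.
Rbfox3, chr11:118761042-118761291, minus strand: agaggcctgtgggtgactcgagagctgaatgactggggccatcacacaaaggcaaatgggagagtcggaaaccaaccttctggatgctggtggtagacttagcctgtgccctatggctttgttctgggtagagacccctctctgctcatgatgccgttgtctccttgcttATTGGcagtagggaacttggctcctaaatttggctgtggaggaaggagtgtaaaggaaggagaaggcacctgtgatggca
Map2, chr1:66175079-66175328, plus strand: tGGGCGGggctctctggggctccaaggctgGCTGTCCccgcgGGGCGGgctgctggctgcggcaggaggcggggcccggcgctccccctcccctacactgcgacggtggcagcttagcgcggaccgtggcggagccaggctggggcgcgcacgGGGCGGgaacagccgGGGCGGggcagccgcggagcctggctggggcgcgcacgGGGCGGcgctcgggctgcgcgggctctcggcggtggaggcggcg
Elavl3, chr9:22052024-22052273, minus strand: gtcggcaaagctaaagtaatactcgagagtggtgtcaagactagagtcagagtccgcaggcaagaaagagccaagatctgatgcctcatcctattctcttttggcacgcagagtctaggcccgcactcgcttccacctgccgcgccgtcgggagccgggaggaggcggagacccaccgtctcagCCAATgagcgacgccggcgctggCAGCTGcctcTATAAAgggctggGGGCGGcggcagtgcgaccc
Tubb3, chr8:123411303-123411552, plus strand: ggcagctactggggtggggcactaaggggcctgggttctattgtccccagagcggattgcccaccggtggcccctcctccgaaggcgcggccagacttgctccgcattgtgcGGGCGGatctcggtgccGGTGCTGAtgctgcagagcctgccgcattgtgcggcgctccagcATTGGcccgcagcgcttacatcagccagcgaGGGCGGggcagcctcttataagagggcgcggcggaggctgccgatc

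The Rbfox3 window held 3 CpG dinucleotides, against 34 for Map2, 21 for Tubb3, 20 for Elavl3 and a median of 6 over all 32851 promoters of the table. The windows of Elavl4, the fifth gene, are not shown and held 3, 5, 4 and 14. Its window with 3, at 110286835 to 110287084, had a peak over it in every library, so few CpG did not go with wild-type-only peaks throughout. Map2 had 5 matches to GGGCGG, Tubb3 2 and Elavl3 1, and 32.7% of all promoters held one. In Elavl3 a TATAAA began 33 bases before the start, and 12.4% of promoters held these letters. Tubb3 had 1 match to TCAGCACC on the opposite strand, which 1.32% of promoters held, and Map2 had 1 to GGACAGC, also on the opposite strand, which 5.28% held. CCAAT was matched once each in Rbfox3, Elavl3 and Tubb3 and in 33.8% of promoters. CAGCTG was matched in Elavl3 alone of the 4 windows shown and in 13.0% of promoters. None of the 4 windows shown held TGACGTCA (1.55% of promoters), TGACTCA (4.46%) or CAGATG (14.4%). Such matches describe letters and not bound sites.

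**Figure D1:**
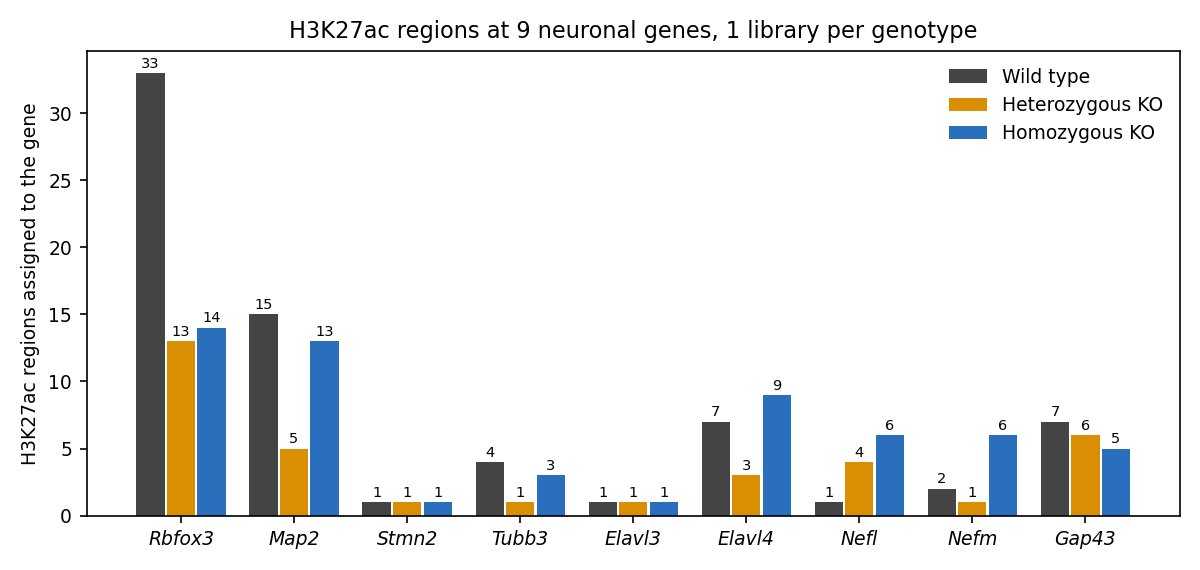
Bars give the number of H3K27ac regions assigned to each gene (y axis, count) in the wild-type, heterozygous and homozygous libraries, 1 library each. Rbfox3 had 33, 13 and 14 regions and Map2 15, 5 and 13, while Nefl had 1, 4 and 6 and Nefm 2, 1 and 6.

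All 9 genes had at least 1 region in every library, with 71 regions in wild type, 35 in heterozygous cells and 58 in homozygous cells. The number of regions per gene differed widely, from 1 in each library at Stmn2 and Elavl3 to 33, 13 and 14 at Rbfox3. The plot of regions by gene shows that Rbfox3 held 33 of the 71 wild-type regions, and the other 8 genes together had 38, 22 and 44 regions in wild-type, heterozygous and homozygous order. Peaks of the 9 genes covered 42233, 21861 and 31021 bp in the same order, with median widths of 512, 462.5 and 405.5 bp.

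Over the 9 genes together, 47 of 71 wild-type regions were lost in the heterozygous library, that is, had no heterozygous peak (66.2%, exact 95% binomial interval 54.0 to 77.0%), and 11 of 35 heterozygous regions were gained, with no wild-type peak (31.4%, 16.9 to 49.3%). Over all regions 42.4% were lost and 21.4% gained, and over regions more than 1 kb from an annotated start 56.2% were lost and 32.6% gained. Away from starts 45 of 60 wild-type regions of the 9 genes were lost (75.0%, 62.1 to 85.3%) and 11 of 26 heterozygous ones gained (42.3%, 23.4 to 63.1%). Rbfox3 gave 25 of the 47 losses and Map2 11, and without Rbfox3 22 of 38 regions were lost (57.9%, 40.8 to 73.7%). Regions of 1 gene are not independent, and the intervals cover counting error only.

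In the homozygous library 32 of 71 wild-type regions were lost (45.1%, 33.2 to 57.3%) and 19 of 58 homozygous regions gained (32.8%, 21.0 to 46.3%), against 39.4% and 25.9% of all regions. More than 1 kb from a start, 31 of 60 wild-type regions of the 9 genes were lost (51.7%, 38.4 to 64.8%) and 19 of 48 homozygous ones gained (39.6%, 25.8 to 54.7%), close to the 52.1% and 37.5% of all such regions. The losses were 19 at Rbfox3, 5 each at Map2 and Gap43, 2 at Tubb3 and 1 at Elavl4, and the gains 5 at Nefl, 4 at Nefm, 3 each at Map2, Elavl4 and Gap43 and 1 at Tubb3. Without Rbfox3, which had none of the gains, 13 of 38 regions were lost and 19 of 44 gained (34.2% and 43.2%), so the order of losses and gains over the list rested on that gene. The order also turned with lists of equal length, where gains exceeded losses by 2.

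Between the knockouts, which differed in list length and in median summit (47 and 54 reads) though not in lowest background, 37 of 58 homozygous regions had no heterozygous peak (63.8%, 50.1 to 76.0%) and 14 of 35 heterozygous regions no homozygous one (40.0%, 23.9 to 57.9%). Over all regions these shares were 35.1% and 27.6%. More than 1 kb from a start they were 36 of 48 (75.0%, 60.4 to 86.4%) and 14 of 26 (53.8%, 33.4 to 73.4%) at the 9 genes, against 49.5% and 40.4% of all such regions. Of the 37, 10 were at Rbfox3, 9 at Map2, 7 at Elavl4, 5 at Nefm and 2 each at Tubb3, Nefl and Gap43, and of the 14, 9 were at Rbfox3. The homozygous count was higher than the heterozygous one for 6 genes, lower for Gap43 and equal for Stmn2 and Elavl3, and over all genes with a region 27.7% had more and 17.1% fewer.

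Read over all 3 libraries, 16 of the 96 regions were called in each (16.7%, 9.84 to 25.7%), against 36.8% of all regions. Of these 16, 9 lay within 1 kb of a start. Shares of these patterns over all regions away from starts were not computed, so the comparisons here do not allow for place. Regions called in wild type and the homozygous library but not in the heterozygous one numbered 23 (24.0%, 15.8 to 33.7%), against 8.81% of all regions, and 13 of 58 (22.4%) without Rbfox3. Of these 23, 10 were at Rbfox3, 7 at Map2, 4 at Elavl4 and 1 each at Tubb3 and Nefm. Wild type alone held 24 regions (25.0%, against 23.1% of all), 15 of them at Rbfox3, and both knockouts but not wild type held 5 (5.21%, against 3.16%), 3 of them at Nefl and 1 each at Map2 and Gap43.

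Annotated starts had a peak within 1 kb in all 3 libraries at 8 of the 9 genes, the exception being Rbfox3. A peak within 1 kb of a start was found for 9 genes in wild type and 8 in each knockout, where for Stmn2, Nefl, Nefm and Gap43, whose strand the gene table does not give, either gene end was taken, which gives these 4 genes 2 places to hold a peak. The ninth wild-type gene was Rbfox3, whose only start in the promoter table, at 118761041, is an inner one, since the gene runs up to 118911597. With gene ends in place of annotated starts the counts were 8, 8 and 8, and Rbfox3 had no peak at a gene end in any library. Over the 17492 genes of the promoter table such a peak was found for 54.0%, 51.0% and 51.2% in wild-type, heterozygous and homozygous order, and for 48.3% in all 3 libraries. The start itself lay under a peak at 5, 4 and 4 of the 9 genes, against 32.0%, 28.3% and 29.9% of all genes and 22.6% in all 3 libraries. At Tubb3, Elavl3, Nefm and Gap43 the peak lay beside the start or gene end and not over it.

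Among the genes of the cytoskeleton, which code for microtubule and filament proteins, Map2 and Tubb3 had fewest regions in heterozygous cells, Nefl and Nefm had most in homozygous cells, and Stmn2 had 1 throughout. Stmn2, which encodes a microtubule-destabilising protein of growing axons, lies on chromosome 3 at 8509527 to 8561604 (mm10), and its single region ran over the lower gene end. The Stmn2 peak was 584, 466 and 548 bp wide in wild-type, heterozygous and homozygous order, and the fold enrichment that the authors gave it within each list was 6.82, 10.1 and 15.9. The reads recovered at its summit were 32, 45 and 71, over local backgrounds of 3.84, 3.56 and 3.52 reads. Fold and summit reads were thus lowest in wild type and highest in the homozygous library, but they are single values, not scaled for depth, and median summits over whole lists were 49, 47 and 54 reads.

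Tubb3, the class III beta-tubulin gene, lies on chromosome 8 at 123411553 to 123422015. Its start peak was 1837 bp wide in wild type and 1428 bp in the homozygous library, and the heterozygous library had 2 peaks there, of 1427 and 337 bp. A homozygous region of 982 bp at 123421961 to 123422942 ran over the other end of the gene and had no peak in the other libraries. The region at 123426182 to 123426829 was called in wild type and the homozygous library, and those at 123431519 to 123431820 and 123431898 to 123432829 in wild type alone, so Tubb3 had 4, 1 and 3 regions. The last 2 had authors' folds of 1.63 and 2.29, below the wild-type median of 5.67, over local backgrounds of 78.6 and 73.7 reads.

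Map2, which encodes a microtubule-associated protein of dendrites, lies on chromosome 1 at 66175202 to 66442583 and had 15, 5 and 13 regions. At its start the peak was 1154, 825 and 953 bp wide in wild-type, heterozygous and homozygous order, with authors' folds of 9.0, 8.54 and 11.7 and summits of 98, 54 and 109 reads. All 18 regions lay inside the gene. Of the 15 wild-type regions 11 had no heterozygous peak, 7 of them with a homozygous one, and these 7 included 3 side by side from 66220739 to 66222507. Gained minus lost regions in heterozygous cells were -10, and -3 with lists of equal length. The homozygous library had 2 regions of its own, each 522 bp wide, at 66280265 to 66280786 and 66280995 to 66281516. It shared with the heterozygous library a region at 66295828 to 66296463, which lay 20 bp from a wild-type peak. Besides the one at the start, regions at 66294976 to 66295808 and 66388950 to 66389497 were called in all 3 libraries. In the latter the wild-type and homozygous peaks did not overlap each other and were joined by the heterozygous peak. Wild type shared a region of 1094 bp at 66251451 to 66252544 with the heterozygous library alone, and had regions of its own at 66228527, 66320485, 66389779 and 66395097. These last had authors' folds of 3.43 to 4.04, below the wild-type median of 5.67. That at 66228527 lay 186 bp from a homozygous peak. The one at 66389779 lay 288 bp from a heterozygous peak and 282 bp from a homozygous one.

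**Figure D2:**
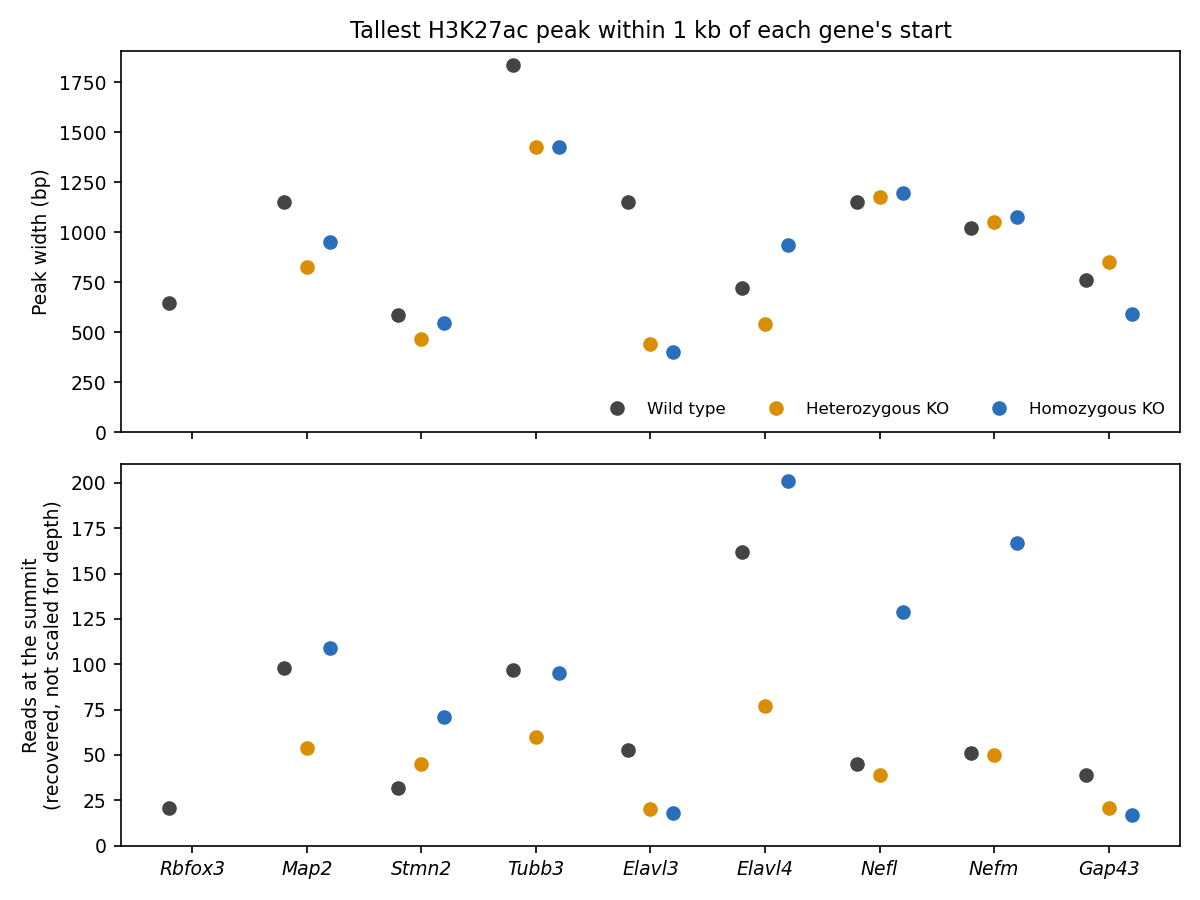
The upper panel gives the width in bp of the tallest peak within 1 kb of each gene's start and the lower panel the reads recovered at its summit, not scaled for depth, 1 point per library. Rbfox3 has a wild-type point alone, and Nefl and Nefm have homozygous summits of 129 and 167 reads beside widths of 1197 and 1077 bp; for Elavl4 the tallest peak lies at the inner starts.

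The neurofilament genes Nefl and Nefm encode the light and medium subunits of the intermediate filaments of axons and lie side by side on chromosome 14, at 68083863 to 68089095 and 68119545 to 68125004. Their gene-end peaks were nearly the same in width in the 3 libraries, at 1152, 1177 and 1197 bp for Nefl and 1022, 1050 and 1077 bp for Nefm. Summit reads, shown in the plot of start peaks, were 45, 39 and 129 for Nefl and 51, 50 and 167 for Nefm in wild type, heterozygous and homozygous order. The local background was also highest in the homozygous library, at 14.8 reads against 4.48 and 4.94 for Nefl and 27.6 against 9.34 and 9.26 for Nefm, and the authors' folds were 8.39, 6.73 and 8.22 and 5.03, 4.97 and 5.87. The homozygous summits were the highest in reads, and the folds of the 3 libraries lay closer together.

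Away from the gene ends, Nefl and Nefm together had 1 region in wild type, 3 in heterozygous cells and 10 in homozygous cells. Of the regions assigned to Nefl, 3 were called in both knockouts and not in wild type, at 68037160 to 68037770, 68040532 to 68041334 and 68050904 to 68051655, which lie 46093, 42529 and 32208 bp from the gene. At the second of these heterozygous cells had 2 narrow peaks, of 291 and 219 bp, and homozygous cells 1 of 633 bp. At 68050904 to 68051655 the heterozygous peak was 687 bp wide (fold 7.54, 37 reads at the summit) and the homozygous peak 752 bp (fold 8.49, 35 reads). The nearest wild-type peak lay 32195 bp from this region. Homozygous regions alone were called at 68036547 to 68037008 and, between both genes, at 68102375 to 68102690. The first of these lay 186 bp from a heterozygous peak. Nefm had 1 region in wild type away from the gene, at 68143751 to 68144158, and the homozygous library had a peak there and 4 further regions, at 68138973, 68139913, 68144414 and 68144956, while the nearest heterozygous peak was at least 14193 bp from each of them. Homozygous regions at 68144414 and 68144956 lay 278 and 820 bp from that wild-type peak, and with peaks up to 1 kb apart joined Nefl had 1, 4 and 5 stretches and Nefm 2, 1 and 3. With a window of 10 kb in place of 50 kb, which leaves these regions out, gained minus lost was 0 for both genes in both knockouts. Apart from those at 68050904, peaks away from the gene ends had authors' folds below the median of their list. These folds were 2.56 to 4.75 in the homozygous library (median 6.31), 2.67 to 4.18 in the heterozygous (5.81) and 4.61 in wild type (5.67). The homozygous peak at 68102375 had 12 reads at its summit over 1.73 reads, the lowest background of its list. Nearness does not show that a region acts on either gene.

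**Figure D3:**
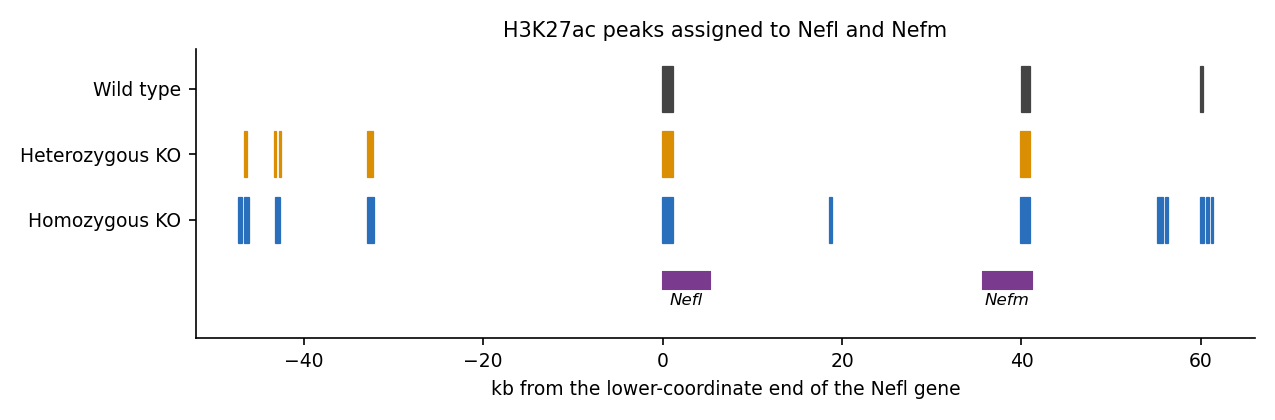
Boxes show peaks of the 3 libraries assigned to Nefl or Nefm against the distance in kb from the lower-coordinate end of Nefl, and purple boxes show the genes. Peaks at the gene ends appear in all 3 rows, those below Nefl in both knockout rows, and those beyond Nefm in the homozygous row with 1 also in wild type.

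Of the RNA-binding proteins, Rbfox3 is the splicing regulator known as NeuN, a standard marker of mature neurons, and Elavl3 and Elavl4 are the HuC and HuD proteins that bind AU-rich elements of mRNA. Rbfox3 lies on chromosome 11 at 118489760 to 118911597 and, at 421838 bp, is the longest of the 9 genes. All of its 38 regions lay inside the gene, with 33 in wild type, 13 in heterozygous cells and 14 in homozygous cells. Counting Rbfox3 itself, 8 of the 21887 genes had 33 or more wild-type regions, and Rbfox3 was 1 of 4 genes whose count was lower by at least as much in the heterozygous library and 1 of 5 whose count was lower by at least as much in the homozygous one. Gained minus lost regions of Rbfox3 were -20 and -19 in these comparisons and -12 and -12 with lists of equal length, for which the rank among genes was not recomputed. Peaks covered 17849, 6992 and 6127 bp of it in the same order, and none lay between 118861434 and the upper end of the gene. Many regions lay close together, and with peaks up to 1 kb apart joined, the library counts were 20, 9 and 9 stretches.

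The knockout libraries had their Rbfox3 regions in different places, and 4 regions were called in all 3 libraries. Rbfox3 is on the minus strand, so its lower coordinates are its 3′ part, and there, up to a boundary set after the values were seen, 14 regions lay between 118508160 and 118610377, of which 9 were called in wild type, 10 in heterozygous cells and 2 in homozygous cells. Of these 14, 5 were heterozygous only, at 118524715, 118525968, 118526420, 118569495 and 118608402. Along the rest, from 118633498 to 118861434, all 24 regions were called in wild type, 3 in heterozygous cells and 12 in homozygous cells. The 9 of these that were shared by wild type and the homozygous library alone included 6 in 3 pairs, at 118633498 and 118634113, at 118650571 and 118651530, and at 118665398 and 118665985. The map of Rbfox3 shows these 3 pairs as a block with no heterozygous peak, the nearest being at least 24790 bp away.

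The 4 Rbfox3 regions in all 3 libraries differed in width. At 118550924 to 118552592 the wild-type peak was 1669 bp wide, the heterozygous library had peaks of 290 and 1015 bp, and the homozygous peak was 282 bp wide. The highest summits there were 147, 136 and 22 reads, over local backgrounds of 23.4, 30.0 and 1.73 reads. The last is the lowest background recovered in the homozygous list, and so need not measure the reads around this peak. Widths at 118744229 were 698, 256 and 207 bp and at 118751456 they were 962, 225 and 288 bp in wild-type, heterozygous and homozygous order. In the region at 118751456 the heterozygous and homozygous peaks did not overlap each other and were joined by the wild-type peak. At 118739088 wild type had peaks of 516 and 386 bp, the heterozygous library of 459 and 304 bp, and the homozygous library a single one of 908 bp. The peak of 648 bp over the annotated start at 118761041, with a fold of 4.62 and 21 reads at its summit, was called in wild type alone, and the nearest heterozygous and homozygous peaks lay 8770 and 7592 bp away. The Rbfox3 region with the highest fold was also wild type only, at 118792980 to 118793650, with 8.93 over 671 bp and 79 reads at the summit.

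**Figure D4:**
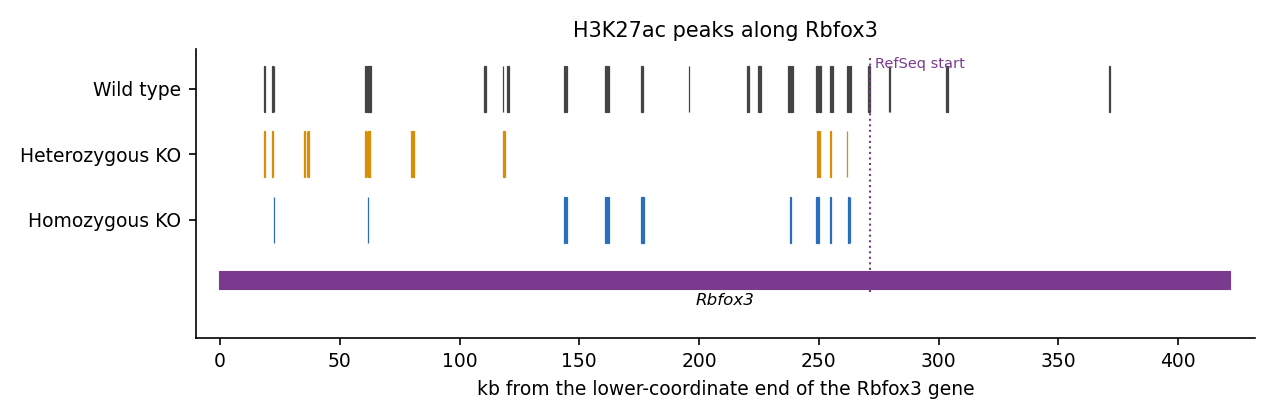
Boxes show H3K27ac peaks of the 3 libraries along Rbfox3 against the distance in kb from the lower-coordinate end of the gene, and the dotted line marks the RefSeq start. The lower part holds 9 wild-type, 10 heterozygous and 2 homozygous regions, and the rest 24, 3 and 12.

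Elavl3 lies on chromosome 9 at 22015005 to 22052146 and had a single region, at 22050808 to 22051993. Its peak was 1153, 439 and 403 bp wide in wild-type, heterozygous and homozygous order, with 53, 20 and 18 reads at the summit and folds of 6.49, 5.77 and 6.95. Width and summit reads were thus highest in wild type, and the fold was not. Local backgrounds were 7.32, 2.64 and 1.73 reads in the same order. The last is the lowest recovered in the homozygous list, so it need not measure the reads around this peak, and the homozygous fold rests on it.

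Elavl4 lies on chromosome 4 at 110203737 to 110351939 and had 7, 3 and 9 regions in that order. The region over the outermost of its 4 annotated starts, at 110350999 to 110352126, had peak widths of 1128, 795 and 1008 bp, folds of 8.5, 10.5 and 12.8 and summits of 92, 73 and 162 reads. The heterozygous peak there ended at 110351861, short of the start itself at 110351911. A group around the inner starts, from 110285194 to 110287437, stood on a local background of 44.5 reads or more in wild type and of 59.8 or more in the homozygous library and had folds of 2.26 to 3.38. In this group the region at 110286480 to 110287437 was called in every library and that at 110285194 to 110286329 was missing from the heterozygous list, whose nearest peak lay 467 bp away. Homozygous regions alone were called at 110221076 to 110221446 and 110239523 to 110239812 inside the gene and at 110358255 to 110358468, 6316 bp outside it. Regions at 110256967, 110257419 and 110289673 were called in wild type and homozygous cells, and 1 of 351 bp at 110290478 in heterozygous cells alone, 479 bp from a wild-type peak and 493 bp from a homozygous one. A wild-type region alone was called 21304 bp outside the gene, at 110373243 to 110374005.

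Gap43, which encodes a membrane protein of growth cones, lies on chromosome 16 at 42248552 to 42340651 and had 7, 6 and 5 regions. Near its upper end the peak was 761, 850 and 590 bp wide in wild-type, heterozygous and homozygous order. The only other region in all 3 libraries, at 42254579 to 42256576 inside the gene, had 2 peaks in wild type (424 and 585 bp), 2 in the heterozygous library (606 and 411 bp) and 1 of 1963 bp in the homozygous library, the widest at any of the 9 genes. Regions at 42318796 to 42319925 and 42320182 to 42320767 were called in wild type and the heterozygous library, and no homozygous peak lay within 19039 bp. The first of them had a summit of 105 wild-type and 48 heterozygous reads, with folds of 6.77 and 6.45. Regions at 42303217 and 42303620 were called in wild type alone, and those at 42227989 and 42245368, below the gene, in the homozygous library alone. At 42380362 to 42380767 a region 39711 bp above the gene was called in both knockouts, 530 bp from a wild-type peak.

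**Figure D5:**
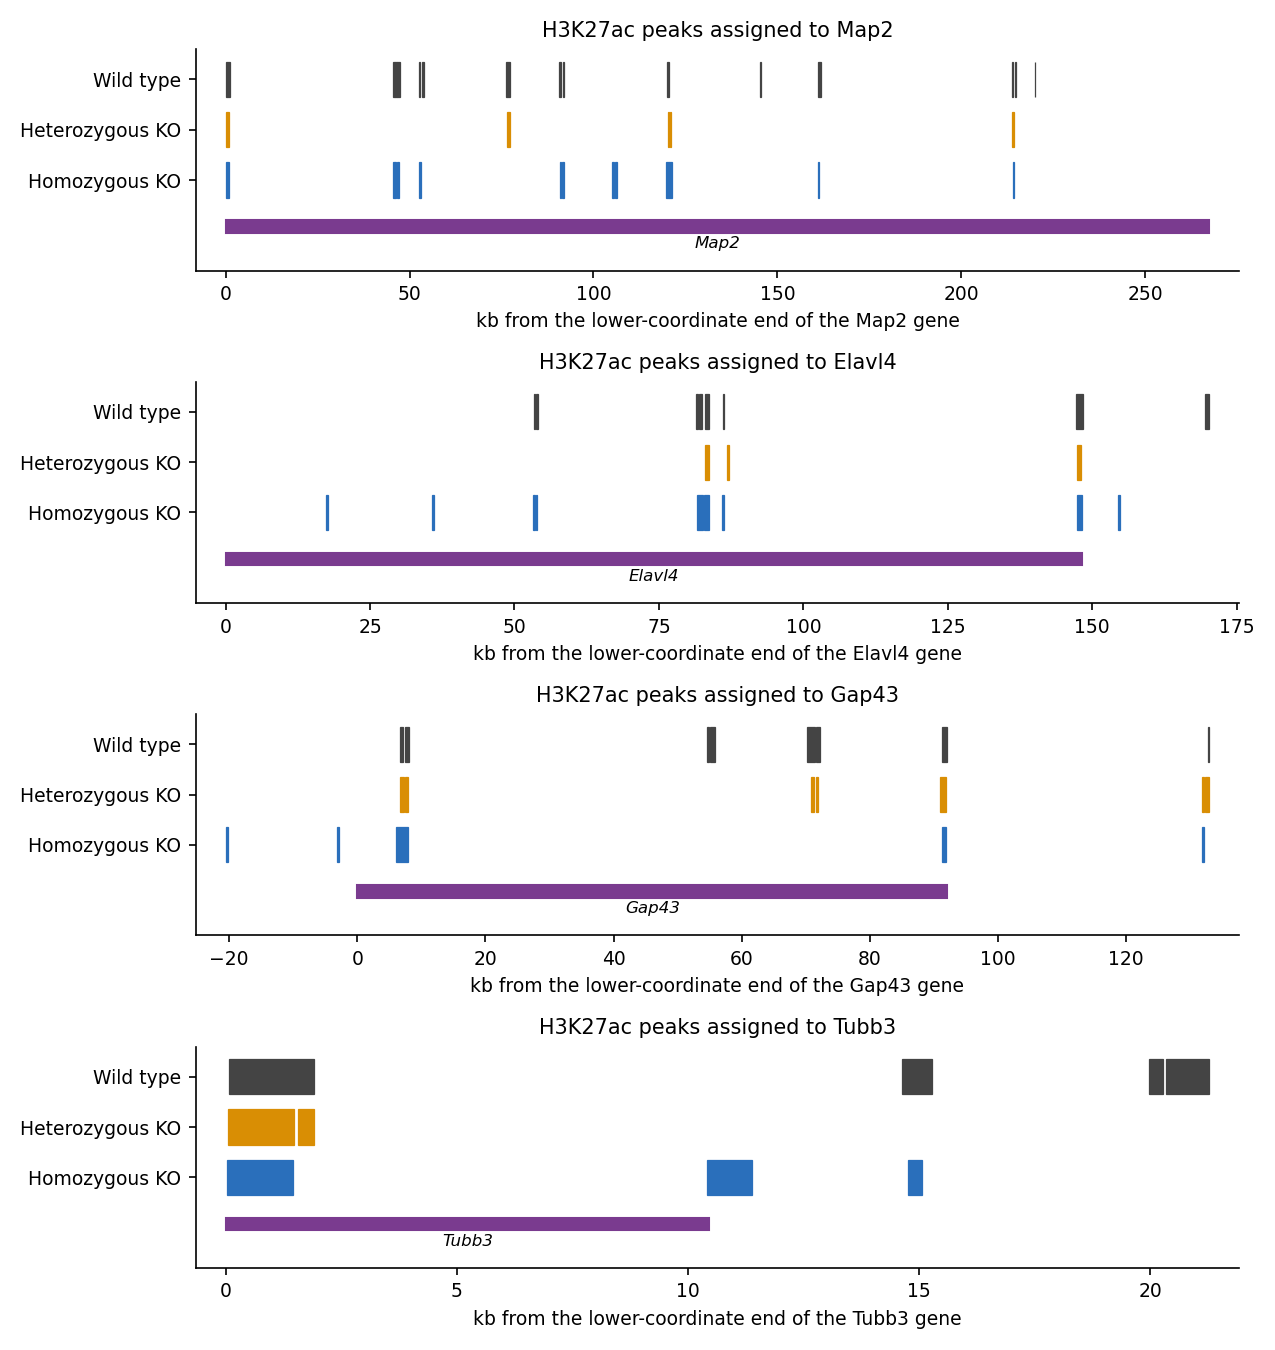
Boxes show peaks of the 3 libraries assigned to Map2, Elavl4, Gap43 and Tubb3 against the distance in kb from the lower-coordinate end of each gene (purple), with a scale of its own per panel. Map2 has 15, 5 and 13 regions in wild-type, heterozygous and homozygous order, Elavl4 7, 3 and 9, Gap43 7, 6 and 5, and Tubb3 4, 1 and 3.

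Most one-sided peaks lay below the median of their list in the authors' −log10 q, a value that rises with the depth of a library. At or above the median of their list were 13 of the 48 wild-type peaks lost in the heterozygous library, 10 of 32 lost in the homozygous library, 3 of 12 heterozygous and 4 of 19 homozygous peaks gained over wild type. Peaks of these genes away from starts, one-sided or not, also lay mostly below the median of their list. Those below numbered 40 of 62 in wild type, 20 of 30 in heterozygous cells and 36 of 48 in homozygous cells. The library that lacked a peak had one within 1 kb for 9 of the 47 and 8 of the 32 lost regions, and for 4 of the 11 and 4 of the 19 gained ones. Neither these counts nor those against the list median were computed over one-sided peaks of all genes. They therefore cannot be called particular to these genes. Peaks near starts were wider than the others of these genes, with medians of 891.5 against 422.5 bp in wild type, 810 against 408.5 bp in heterozygous cells and 957.5 against 370.5 bp in homozygous cells.

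A wider list of 49 neuronal genes covered the cytoskeleton, RNA-binding proteins, the REST repressor with its cofactors, and vesicle, granule and surface proteins, and all 49 had a region in 1 library or more. They had 213, 154 and 185 regions in wild-type, heterozygous and homozygous order. In the heterozygous library 24 had fewer regions than in wild type, 10 more and 15 as many, with a median difference of 0, and over all genes with a region 38.3% had fewer and 11.2% more, also with a median of 0. In the homozygous library 20 had fewer, 13 more and 16 as many as in wild type, against 33.7% and 16.6% over all genes with a region. Between the knockouts 21 had more in the homozygous library, 11 fewer and 17 as many. Over all genes with a region 27.7% had more and 17.1% fewer. The 9 RNA-binding genes had 8 members with fewer regions in the heterozygous library and none with more, with a median difference of -3, and 79, 50 and 70 regions in wild-type, heterozygous and homozygous order. Among them were both paralogs of Rbfox3, with 13, 6 and 9 regions at Rbfox1 and 14, 7 and 20 at Rbfox2, so that Rbfox2 had most in homozygous cells. The splicing factor gene Srrm4 had 7, 3 and 8, and Celf4 25, 24 and 20.

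Of the cytoskeletal genes on that list, Mapt, which encodes tau, had 2, 4 and 7 regions in the same order. Dpysl3, a collapsin response mediator gene, had 6, 0 and 0, and the kinesin gene Kif1a 6, 2 and 1. Of the vesicle and surface genes, the cell adhesion gene L1cam had 0, 2 and 3, and the granin genes Chgb 1, 3 and 1 and Chga 8, 4 and 7. The calcium sensor gene Syt1 had 8, 1 and 5, and the complexin gene Cplx2 13, 8 and 3. Rest itself had 1, 2 and 1 regions, with a peak at a gene end in the heterozygous library alone.

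Few other genes had the same 3 counts of regions as a member with at least 5 regions. No gene matched Rbfox3, while Efna5 matched Map2, Vwa8 matched Nefl, Patj and Tmem132b matched Elavl4, and Arhgap21 and Kcnip3 matched Gap43. Nefm was matched by 4 genes, the first by name being Abcc1, Lrch1 and Rbms3, and Tubb3 by 37, the first being 4930571K23Rik, Adck1 and Adck5. The single region in each library of Stmn2 and Elavl3 was a count that 3687 other genes also had.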

How the data were processed

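H3K27ac ChIP-seq peaks of 3 MIN6 libraries were analysed. Per the submitters' processing notes, reads were demultiplexed with bcl2fastq and peaks called with MACS2 on mm10; aligner, control and threshold were not given in the sources used here. The authors' deposited lists hold, per peak, its position, score, fold enrichment (a ratio within the library), −log10 p, −log10 q and summit. Wild-type peak names carry a tag, GAL4, of unstated meaning.

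Peaks were merged in Python 3.11.15 (numpy 2.4.6, pandas 2.3.3, scipy 1.17.1, matplotlib 3.10.9), and bedtools 2.31.1 gave the same 52938 regions. A region was present with 1 bp of peak. Distances ran from region to gene interval (GRCm38.p6 RefSeq table, without strand or exons). Merging and assignment were tested on simulated data. Summit reads were recovered from fold (pile-up plus 1 over background plus 1) and a Poisson p, to within 0.01 of −log10 p, for all but 4 peaks. Intervals are Clopper-Pearson. The promoter table lacks some genes, which count as no start.

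The members and lists were chosen with earlier results of these data known. All 9 members are named; of the wider list, the 4 largest differences each way per comparison and Rest, except that some genes are not reported here. Alternatives varied list length, thresholds, window, overlap and merging.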

Additional observations from a re-analysis of the deposited data

Results flagged for a closer look

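For 2 genes the counts of regions in the knockouts lay on opposite sides of wild type, a difference that was not tested and has 1 library on each side. Elavl4 had a balance of gained minus lost regions of -4 in heterozygous and 2 in homozygous cells. Its balances were -1 and 4 with lists of equal length, and -2 and 2 with peaks of at least 250 bp. Nefm had -1 and 4, but 0 and 0 with a window of 10 kb in place of 50 kb, and 1 in homozygous cells with peaks up to 1 kb apart stitched. Both comparisons share the wild-type library.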

How the results depend on the processing

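Nothing here has replicates, so depth, clone and genotype cannot be told apart. Of 105 alternative values for counts over all 9 genes, 73 stayed within 1.5 times, 30 moved further and 2 changed sign; of 240 for single genes 184 stayed, 51 moved and 5 changed sign. No paired analysis was possible because each genotype had 1 library.

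Counts are given in the order stated, and the cause of each shift was not tested. With lists of equal length, losses were 30 (heterozygous against wild type) and 21 (homozygous against wild type), and gained minus lost -15 and 2, the latter reversed from -13. With −log10 q of at least 10, the heterozygous library had 22 regions, 7 were gained over wild type, 8 heterozygous ones were lost in the homozygous library, and the homozygous balance against wild type was -6. With a window of 10 kb, gains over wild type were 7 (heterozygous) and 8 (homozygous), and the homozygous balance was -22. A peak within 1 kb of the start, in place of one over it, gave 9, 8 and 8 genes.

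Chosen after seeing the data were 2 further settings. Without Rbfox3, wild type had 38 and the heterozygous library 22 regions; heterozygous gains, losses and balance were 6, 22 and -16; homozygous losses were 13 with a balance of 6, reversed; and 5 heterozygous regions were lost in the homozygous library. With peaks up to 1 kb apart stitched, wild type had 46 regions; the heterozygous library had 5 gains, 23 losses and a balance of -18; the homozygous library had 12, 16 and -4; and against the heterozygous library it had 20 gains, 6 losses and a balance of 14.

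Single genes reversed as follows in the homozygous library against wild type. Map2 turned from -2 to 3 with lists of equal length and to 1 with peaks of at least 250 bp, and Tubb3 from -1 to 1 with lists of equal length and when stitched. Gap43 turned from -1 to 1 against the heterozygous library when stitched.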
